A study of Mus musculus with 16 samples.

Results

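The genes described here build and run the motile cilium, or are found in the ependymal cells that carry such cilia. There were 33 of them, given as a list of symbols: dynein, radial spoke, central pair and other axonemal genes, together with genes that had ranked among those most raised on striatal arrays. Because that ranking used the striatum against cortex difference of these same arrays, the region values of these genes are given as a description and carry no test. Of the 33, 32 had a level on the array, each from 1 transcript cluster (a set of probes summarised as 1 transcript unit), out of 30743 genes with a level in all. The remaining gene, Foxj1, the forkhead factor that switches on the motile cilium programme, shared its cluster with the neighbouring gene Rnf157 and so has no value here.

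The arrays came from cells that carried tdTomato, a red fluorescent protein, used to mark parvalbumin (PV) interneurons, which are fast-spiking inhibitory neurons. The cells were sorted by fluorescence from dorsal striatum or from motor and somatosensory cortex of male C57BL/6J mice aged 30 days. In the PV-tdTomato line (genotype PV-tdTomato/+, titled PVwt) the reporter was present without Cre recombinase. In the PVCre line (genotype PVCre/+; tdTomato/+) the mice carried the PVCre allele with a tdTomato allele, both heterozygous. Each of the 4 combinations of line and region had 4 arrays, 16 in all, and each array used RNA of 2000 cells pooled from 2 to 4 mice. Levels are log2 values of Affymetrix Mouse Transcriptome Arrays, so a difference of 1 is 2-fold. Probes bind unequally, so levels are compared between samples and never between genes.

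A motile cilium is a beating hair built on a ring of microtubule doublets around a central pair of microtubules. Outer and inner dynein arms slide the doublets past each other, radial spokes carry signals from the central pair to the arms, and nexin links hold neighbouring doublets together. Ependymal cells, which line the ventricles of the brain and move cerebrospinal fluid with tufts of such cilia, are the main multiciliated cells of the forebrain. Neurons carry a single immotile primary cilium that lacks dynein arms, spokes and central pair.

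The labelled cell type was checked against its markers on every array. The mean level of 12 PV interneuron markers ran from 6.96 to 11.3 over the 16 arrays, and Pvalb itself, the parvalbumin gene, from 6.69 to 12.48. Pvalb was at 8.4 or less on 6 arrays: PV-tdTomato striatum replicates 3 and 4, PV-tdTomato cortex replicates 3 and 4, and PVCre cortex replicates 2 and 4. The mean of 12 oligodendrocyte markers lay between 12.32 and 15.2 on all 16 arrays. The 14 microglial markers averaged 5.31 to 5.82 on PV-tdTomato arrays and 7.41 to 9.81 on PVCre arrays. As a measure of array quality, positive control probe sets stood 4.16 to 4.85 above negative ones on PV-tdTomato arrays and 3.08 to 3.93 on PVCre arrays, so the lines also differ in this. Background is taken here as the highest of the 23 antigenomic probe sets, which match no mouse sequence; it lay between 5.74 and 6.61.

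On cortical arrays most motile cilium genes were at background, and on striatal arrays of both lines most were above it. On all 8 cortical arrays 19 of the 32 genes stayed at or under background, and on all 8 striatal arrays 26 were above it. Over both lines the striatal level was the higher in 32 of 32 genes, by a median of 1.86 on the log2 scale (1.66 in PV-tdTomato, 2.08 in PVCre), against a median of -0.023 over all genes. Every striatal array lay above every cortical array of its line for 31 of 32 genes in each line, the exception in both lines being Dnaic2. How many of all genes were so separated was not counted. Of all genes, 2.89% differed between the regions over both lines at an adjusted p under 0.05 (1.6% in PV-tdTomato and 2.48% in PVCre). The genes were chosen on this contrast, so nothing is read from their counts. For the 19 genes at background in cortex the difference runs from background, not from a measured cortical level. Without the 6 arrays lowest in Pvalb, the median difference was 1.97. In RNA from pooled cells, fewer cells of a type and less RNA per cell cannot be told apart.

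**Figure D1:**
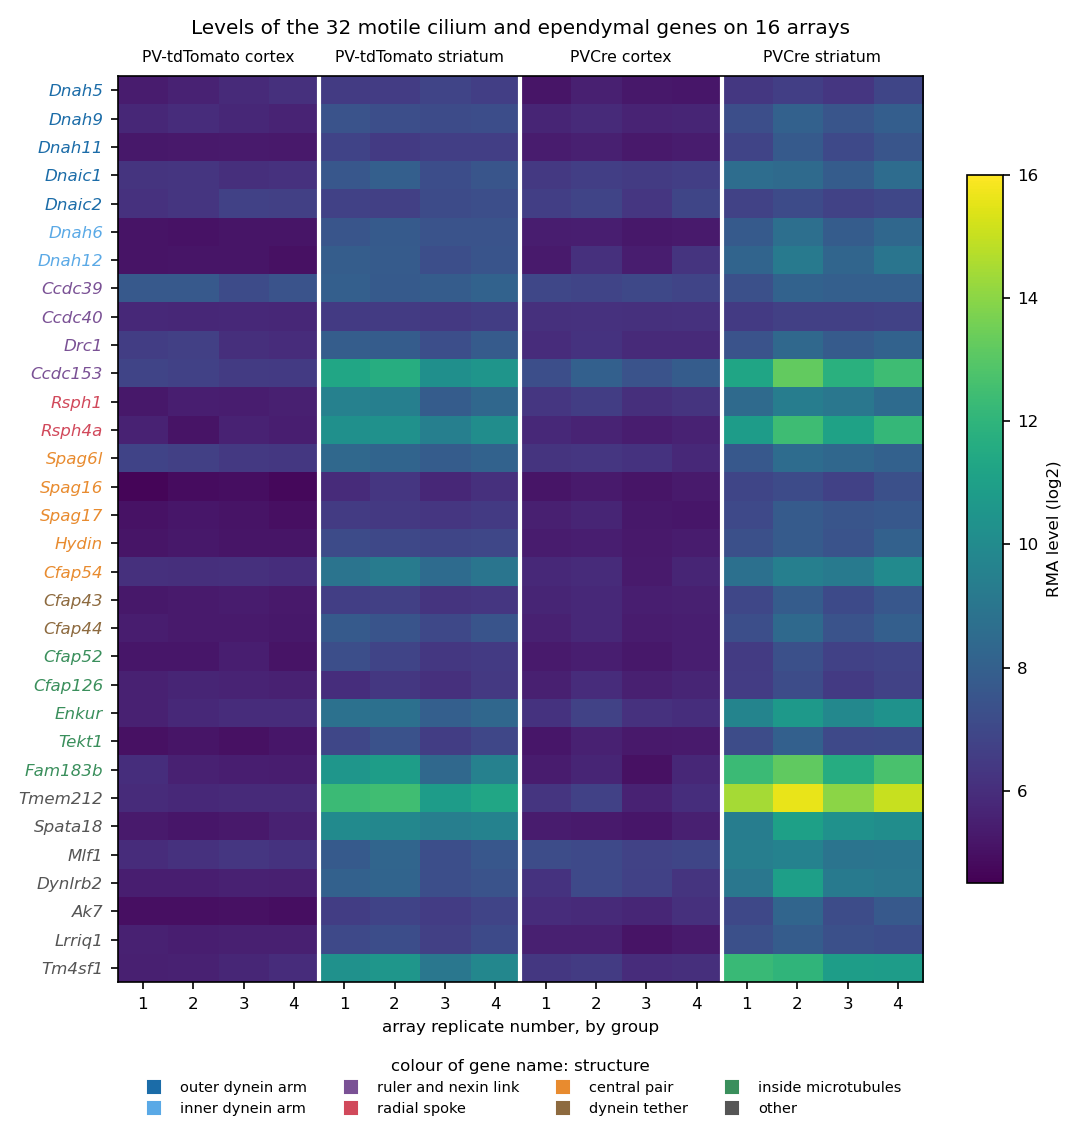
Log2 levels of the 32 genes (rows, names coloured by axonemal structure) on the 16 arrays (columns, by group and replicate number). Cortical columns are dark nearly throughout, while striatal columns are light for Tmem212, Fam183b, Ccdc153, Rsph4a and Tm4sf1, with PVCre striatum replicate 2 the lightest column for 25 of the genes among its 4 arrays.

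The heat map of levels shows the same division at every structure of the axoneme, with a few rows (Ccdc39, Ccdc40 and Dnaic2) nearly even across it. The plot of region differences by structure orders the same genes by where their proteins sit.

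The outer dynein arms, which power the beat, were represented by 3 heavy chain genes (Dnah5, Dnah9 and Dnah11) and 2 intermediate chain genes (Dnaic1 and Dnaic2), with a median region difference of 1.61. Dnaic1 read 7.63, 7.98, 7.22 and 7.53 on the PV-tdTomato striatal arrays and 6.25, 6.29, 6.07 and 6.15 on the cortical ones, a difference of 1.40 ± 0.17 (SE). On the PVCre arrays it read 8.62, 8.46, 7.84 and 8.57 in striatum and 6.42, 6.65, 6.49 and 6.62 in cortex, a difference of 1.83 ± 0.17. All striatal arrays were above all cortical arrays in either line. The heavy chains differed by 1.09 ± 0.11 (Dnah5), 1.73 ± 0.11 (Dnah9) and 1.63 ± 0.11 (Dnah11) over both lines, from cortical levels that were at background on all 8 arrays. Dnaic2 differed by 0.37 ± 0.13, with striatal levels of 6.70 to 7.25 and cortical levels of 6.14 to 6.73 in PV-tdTomato that overlapped; it was above background on 6 of the 8 cortical arrays.

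The inner dynein arms, which shape the bend of the cilium, were represented by the heavy chain genes Dnah6 and Dnah12. Dnah12 read 7.89, 7.82, 7.25 and 7.49 in PV-tdTomato striatum and 5.09, 5.14, 5.13 and 5.03 in PV-tdTomato cortex, a difference of 2.52 ± 0.25. In PVCre it read 8.19, 9.24, 8.27 and 8.99 in striatum and 5.35, 6.10, 5.42 and 6.24 in cortex, a difference of 2.89 ± 0.25. No striatal array came near the cortical range. Dnah6 differed by 2.62 ± 0.12 over both lines. Dnah6 was at background on all 8 cortical arrays.

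The genes of the molecular ruler and of the nexin link differed by 0.61 to 4.40 over both lines. Ccdc153, a component of the nexin link, read 11.30, 11.65, 10.21 and 10.49 in PV-tdTomato striatum and 6.87, 6.71, 6.51 and 6.46 in PV-tdTomato cortex, a difference of 4.27 ± 0.38. In PVCre it read 11.24, 13.22, 11.78 and 12.44 in striatum and 7.27, 8.02, 7.44 and 7.83 in cortex, a difference of 4.53 ± 0.38. Unlike most of the genes, Ccdc153 was above background on all 8 cortical arrays. The other nexin link gene, Drc1, differed by 1.67 ± 0.16 over both lines. Ccdc39 and Ccdc40, whose proteins form the ruler that sets the spacing of spokes and inner arms along the doublet, differed by 0.68 ± 0.12 and 0.61 ± 0.06. Ccdc39 was also above background on all 8 cortical arrays, at 6.85 to 7.70, whereas Ccdc40 was above it on none.

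The radial spoke was represented by 2 genes of the spoke head, which touches the central pair. Rsph4a read 10.29, 10.31, 9.47 and 10.14 in PV-tdTomato striatum and 5.60, 5.12, 5.58 and 5.45 in PV-tdTomato cortex, a difference of 4.61 ± 0.30. In PVCre it read 10.87, 12.45, 11.11 and 12.15 in striatum and 5.81, 5.66, 5.40 and 5.62 in cortex, a difference of 6.02 ± 0.30. The 8 cortical values were all at background, and the 8 striatal values were all far above it. Rsph1 differed by 3.41 ± 0.33 in PV-tdTomato and 2.55 ± 0.33 in PVCre, from 7.83 to 9.57 and 8.47 to 9.36 in striatum to 5.26 to 5.50 and 6.07 to 6.6 in cortex.

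The central pair genes had a median region difference of 1.80. Cfap54, a protein of the central pair projections, read 8.94, 9.30, 8.52 and 8.95 in PV-tdTomato striatum and 6.08, 6.06, 6.08 and 6.00 in cortex. In PVCre it read 8.76, 9.48, 9.18 and 9.99 in striatum and 5.81, 5.92, 5.34 and 5.67 in cortex. Its region differences were 2.87 ± 0.22 and 3.67 ± 0.22. The cortical arrays were at background and did not approach the striatal range in either line. Hydin, the giant projection protein whose loss causes hydrocephalus in mice, differed by 2.05 ± 0.09 over both lines, Spag6l by 1.80 ± 0.13, Spag17 by 1.72 ± 0.11 and Spag16 by 1.51 ± 0.09. Spag6l has a close paralog, Spag6, whose old symbol the array annotation uses for it, so its level may hold signal of both. The difference of Spag16 runs from 4.65 to 4.92 in PV-tdTomato cortex to 5.80 to 6.32 in PV-tdTomato striatum, where only 1 of 4 arrays was above background.

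Cfap43 and Cfap44 form a tether that anchors a dynein of the inner arm row, and had a median difference of 1.80. Cfap44 read 7.77, 7.47, 7.0 and 7.49 in PV-tdTomato striatum and 5.43, 5.34, 5.34 and 5.25 in cortex. On PVCre arrays it read 7.27, 8.42, 7.44 and 7.97 in striatum and 5.55, 5.82, 5.39 and 5.46 in cortex. All 8 cortical arrays were at background. Of the genes of proteins inside or bound to the doublet microtubules, Fam183b read 10.54, 10.89, 8.37 and 9.57 in PV-tdTomato striatum and 6.02, 5.57, 5.48 and 5.43 in cortex. In PVCre it read 12.34, 13.21, 11.63 and 12.69 in striatum and 5.37, 5.70, 5.03 and 5.76 in cortex. Its region differences of 4.22 ± 0.45 and 7.0 ± 0.45 start from background in cortex in both lines, and its PV-tdTomato striatal arrays were the most spread of any of the 32 genes. Enkur differed by 3.25 ± 0.17 over both lines, Tekt1, a tektin filament protein, by 1.92 ± 0.14, Cfap52 by 1.49 ± 0.14 and Cfap126 by 0.84 ± 0.11.

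The last group holds genes of ciliated cells that were not placed in a structure. Tmem212, a transmembrane protein gene, read 12.35, 12.47, 10.86 and 11.30 in PV-tdTomato striatum and 5.91, 5.84, 5.89 and 5.86 in cortex, a difference of 5.87 ± 0.38. In PVCre it read 14.43, 15.63, 13.99 and 15.02 in striatum and 6.27, 6.73, 5.59 and 6.01 in cortex, a difference of 8.62 ± 0.38. Spata18, a mitochondrial quality control gene, read 10.02, 9.84, 9.42 and 9.58 in PV-tdTomato striatum and 5.34, 5.19, 5.27 and 5.57 in cortex. The PVCre arrays read 9.37, 11.03, 10.33 and 10.16 in striatum and 5.38, 5.34, 5.19 and 5.49 in cortex. Tm4sf1, a tetraspanin-like surface protein gene best known from endothelial cells, read 10.31, 10.54, 9.04 and 9.82 in PV-tdTomato striatum and 5.49, 5.55, 5.75 and 5.96 in cortex. Its PVCre levels were 12.28, 12.02, 10.91 and 10.84 in striatum and 6.38, 6.48, 5.97 and 6.03 in cortex. Spata18 and Tm4sf1 were separated by region in either line, Spata18 by 4.62 ± 0.18 and Tm4sf1 by 4.77 ± 0.24 over both lines. Dynlrb2, a dynein light chain gene, differed by 2.64 ± 0.26, Mlf1 by 1.91 ± 0.14, Lrriq1 by 1.78 ± 0.10 and the adenylate kinase gene Ak7 by 1.67 ± 0.15.

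**Figure D2:**
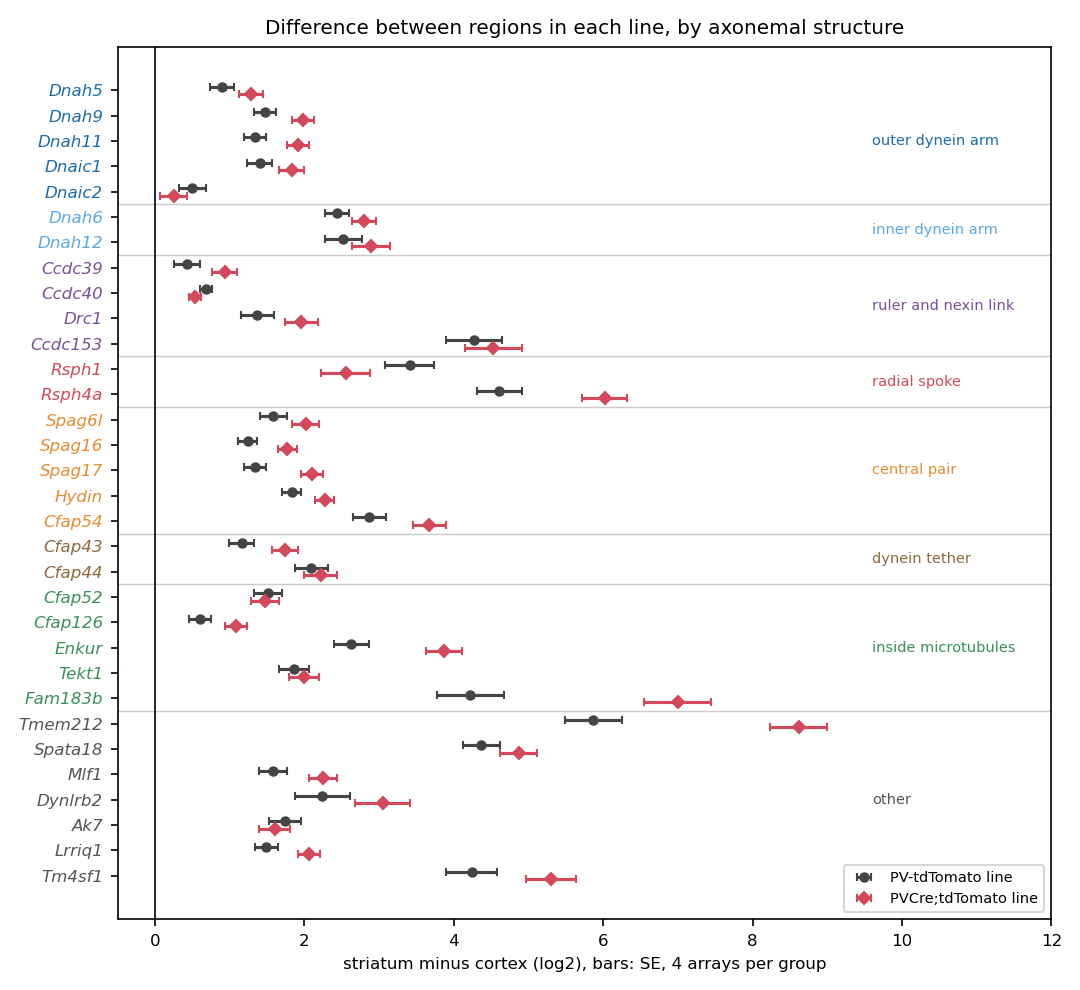
Striatum minus cortex (log2, horizontal axis) for each of the 32 genes in the PV-tdTomato line (circles) and the PVCre line (diamonds), grouped by structure; bars are standard errors, with 4 arrays in each group. All points lie right of 0, from 0.25 for Dnaic2 to 8.62 for Tmem212, both in PVCre.

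In 27 of the 32 genes the region difference was the larger in PVCre, the exceptions in the plot of region differences being Dnaic2, Ccdc40, Rsph1, Cfap52 and Ak7. Under quantile normalization the count was 30, with Ccdc40, Cfap52 and Ak7 among them, and over the arrays left out it was 24 to 29. An interaction term measured how far the region difference itself differed by line. It is built from the region differences on which the genes were chosen, and for the 19 genes at background in cortex it largely repeats the line difference in striatum, so nothing is read from its counts. In limma 0 of 32 genes passed an adjusted p of 0.05, where 0.0943% of all genes did (0.0683% larger and 0.026% smaller in PVCre). At an unadjusted p under 0.05 it was 15 of the 32, all larger in PVCre, and 6.2% of all genes in either direction. The smallest interaction p belonged to Tmem212, with 2.75 ± 0.54 (limma adjusted p = 0.091), then Fam183b with 2.78 ± 0.64 (limma adjusted p = 0.20). With the replicate number as a block, Tmem212 passed at 2.75 ± 0.38 (limma adjusted p = 0.032) and the other 31 genes did not. That block also joined same-numbered PVCre arrays, which did not deviate together throughout (r from -0.23 to 0.65), so nothing is read from this call. Enkur had an interaction of 1.24 ± 0.34 and Spag17 of 0.76 ± 0.22, neither past the threshold with or without the block.

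The comparison of the lines in striatum asked whether these transcripts were more abundant on PVCre arrays. The striatal levels of both lines entered the ranking that picked many of the genes, so the counts below describe these genes and are not independent of that choice. In limma, 20 of 32 were higher in PVCre striatum at an adjusted p under 0.05 and 0 were lower, where 22.6% of all genes were higher and 27.7% lower (50.4% in all). At an unadjusted p under 0.05 these were 20 and 0 as well, and 56.4% of all genes passed in either direction. The median difference of the 32 genes was 0.63 on the log2 scale, with 29 above 0 (26 to 31 under the alternatives), against -0.049 over all genes. All 4 PVCre arrays lay above all 4 PV-tdTomato arrays in 16 of the 32 genes, and below in 0; among all genes the shares were 21.6% and 26.1%. With the separation of control probe sets as a covariate, 13 of the 32 passed and 23% of all genes. The lines do not overlap in this separation, so in either region that fit can hardly tell it from the line. Calls lost or kept under it therefore decide nothing. Without the 6 arrays lowest in Pvalb, 14 of the 32 passed and 49% of all genes.

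Tmem212 was the most raised, by 3.02 ± 0.38 (SE), or 8.13-fold (limma adjusted p = 2.3e-05), from 11.75 ± 0.79 in PV-tdTomato striatum to 14.77 ± 0.72 in PVCre striatum (SD, n = 4 each). Fam183b rose by 2.63 ± 0.45, 6.17-fold (limma adjusted p = 0.00028), and its lowest PVCre array, at 11.63, was above its highest PV-tdTomato array, at 10.89. In the same group of microtubule-bound proteins, Enkur rose by 1.69 ± 0.24 (limma adjusted p = 6.1e-05), from 8.81, 8.73, 7.96 and 8.33 to 9.68, 10.69, 9.88 and 10.34, again without overlap. Cfap126 rose too, by 0.52 ± 0.15, from PV-tdTomato arrays of which 1 of 4 was above background, while Cfap52 (0.11 ± 0.19) and Tekt1 (0.37 ± 0.20) did not pass.

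Among dynein genes, the inner arm genes Dnah12 (1.06 ± 0.25) and Dnah6 (0.60 ± 0.16) rose, as did Dnaic1 (0.78 ± 0.17), Dnah11 (0.66 ± 0.15) and Dnah9 (0.44 ± 0.15) of the outer arm. Dnah5 (-0.07 ± 0.16) and Dnaic2 (-0.04 ± 0.18) of the outer arm did not pass. Dnah9 lost its call when any 1 of 4 arrays was left out: PV-tdTomato striatum replicate 3 or 4, or PVCre striatum replicate 2 or 4. In all, 3 of 5 outer arm genes and both inner arm genes passed, where 22.6% of all genes were higher. With the control separation as a covariate the differences of Dnah9 (0.67), Dnaic1 (0.83), Dnah6 (0.78) and Dnah12 (1.30) were larger and did not pass. Without the 6 arrays lowest in Pvalb, Dnah9 (0.35), Dnaic1 (0.57) and Dnah6 (0.50) did not pass either, and under quantile normalization these 3 passed at 0.76, 1.2 and 1.0.

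Of the radial spoke genes, Rsph4a rose by 1.59 ± 0.30, 3.02-fold (limma adjusted p = 0.00059), without overlap of the arrays. Rsph1, a gene of the same spoke head, differed by 0.05 ± 0.33 (limma adjusted p = 0.91), with PV-tdTomato arrays from 7.83 to 9.57 that spanned the PVCre arrays of 8.47 to 9.36. Of the central pair genes, Spag17, Spag16 and Hydin rose. Spag17 read 6.50, 6.43, 6.33 and 6.44 in PV-tdTomato striatum and 7.02, 7.82, 7.54 and 7.68 in PVCre striatum, a rise of 1.09 ± 0.15 (limma adjusted p = 5.3e-05). Spag16 read 5.93, 6.32, 5.80 and 6.11 and 6.92, 7.11, 6.73 and 7.30, a rise of 0.97 ± 0.13 (limma adjusted p = 4.5e-05). The arrays of the lines did not overlap for either gene, but 2 of 4 PV-tdTomato arrays of Spag17 and 1 of 4 of Spag16 were above background, so these rises start close to it. Hydin rose by 0.65 ± 0.13, and Spag6l (0.01 ± 0.18) and Cfap54 (0.43 ± 0.22) did not pass.

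Ccdc153 rose by 1.26 ± 0.38 (limma adjusted p = 0.013), with overlap of 1 PVCre array (11.24) and the PV-tdTomato arrays (up to 11.65), while the ruler genes Ccdc39 (-0.08 ± 0.17) and Ccdc40 (0.16 ± 0.08) and the nexin gene Drc1 (0.24 ± 0.22) did not pass. Without the 6 arrays lowest in Pvalb, Ccdc153 fell short at 0.69 (limma adjusted p = 0.23), with only the striatal arrays in the fit it stayed at 1.26 (limma adjusted p = 0.054), and with the control separation as a covariate it passed at 2.11 (limma adjusted p = 0.036). Of the tether, Cfap43 rose by 0.90 ± 0.17 and Cfap44 (0.34 ± 0.22) did not pass. Of the genes without a structure, 6 of 7 rose, where 22.6% of all genes were higher. Mlf1, a gene first known from myeloid leukaemia that is also expressed in ciliated cells, read 7.76, 8.27, 7.28 and 7.62 in PV-tdTomato striatum and 9.42, 9.58, 8.92 and 8.99 in PVCre striatum, a rise of 1.49 ± 0.19 (limma adjusted p = 2.8e-05). Dynlrb2 rose by 1.85 ± 0.37, Tm4sf1 by 1.58 ± 0.34, Ak7 by 0.82 ± 0.21 and Lrriq1 by 0.41 ± 0.15, and Spata18 (0.51 ± 0.25) did not pass. Lrriq1 lost its call without PV-tdTomato striatum replicate 3 (0.30) or without PVCre striatum replicate 2 (0.27), and was 0.68 under quantile normalization. With the control separation as a covariate Tm4sf1 (1.33) and Lrriq1 (0.46) did not pass, and without the 6 arrays lowest in Pvalb Ak7 (0.82) and Lrriq1 (0.29) did not.

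**Figure D3:**
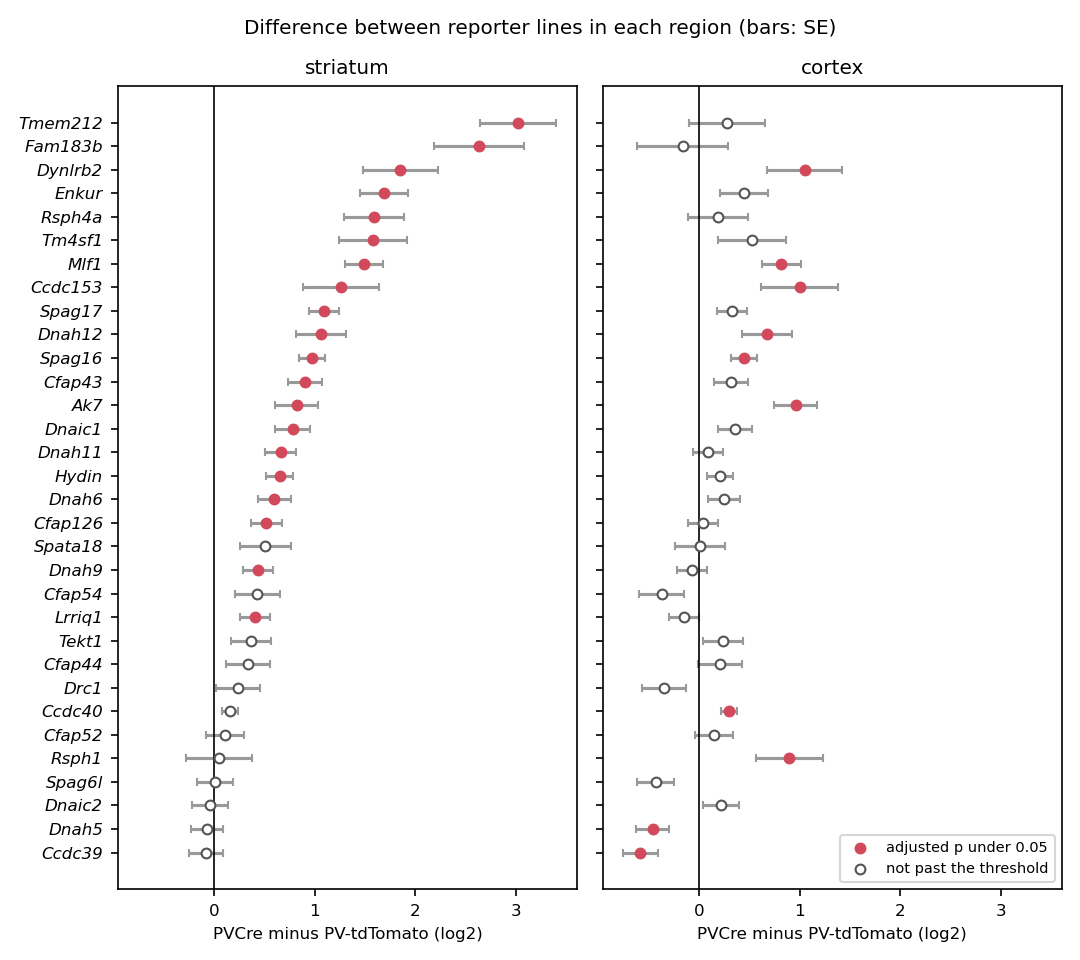
PVCre minus PV-tdTomato (log2, horizontal axes) for each of the 32 genes in striatum (left) and cortex (right), in the order of the striatal difference; bars are standard errors, and filled points passed an adjusted p of 0.05. In striatum 20 points are filled, all right of 0; in cortex 10 are filled, 8 of them right of 0.

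The plot of line differences sets the cortical comparison beside the striatal one. In cortex 8 of 32 genes were higher in PVCre and 2 lower (limma, adjusted p under 0.05), where 24.1% of all genes were higher and 26.9% lower (51% in all), so the share of the 32 genes past the threshold was below that of all genes. The higher genes were Dynlrb2 (1.05 ± 0.37), Ccdc153 (1.00 ± 0.38), Ak7 (0.96 ± 0.21), Rsph1 (0.90 ± 0.33), Mlf1 (0.82 ± 0.19), Dnah12 (0.68 ± 0.25), Spag16 (0.45 ± 0.13) and Ccdc40 (0.30 ± 0.08). Of these, Ak7, Spag16 and Ccdc40 were at background on all 8 cortical arrays, so their differences are between background readings. Dnah5 (-0.46 ± 0.16), also at background throughout, and Ccdc39 (-0.58 ± 0.17), above background on every cortical array, were lower in PVCre. The cortical count depended on single arrays. In all 10 genes passed, but 6 without any 1 of PV-tdTomato cortex replicates 1, 2 and 4 or PVCre cortex replicates 2 and 4. It was 5 without PV-tdTomato cortex replicate 3, and in these fits 45.4% to 48.3% of all genes passed. The count was 2 with the control separation as a covariate (23.2% of all genes) and 3 without the 6 arrays lowest in Pvalb (39.2%). With that covariate Ccdc39 was at -0.12, Dnah5 at -0.74 and Ccdc153 at 1.77, none of which passed. Without those arrays Ccdc153 was at 0.56, Dnah12 at 0.28 and Dnah5 at -0.28, and under quantile normalization Ccdc39 was at -0.29, none past the threshold.

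Markers of other cell types were compared between the lines as well, against 22.6% of all genes higher and 27.7% lower in PVCre striatum and 24.1% and 26.9% in PVCre cortex. Of the 8 ependymal markers outside the axoneme 3 were higher in PVCre striatum, among them Vim (1.91 ± 0.37) and Rarres2 (1.23 ± 0.40), and Nnat was lower (-0.77 ± 0.17). In striatum 14 of 14 microglial markers, 11 of 14 endothelial markers and 8 of 9 mural cell markers were higher in PVCre (limma, adjusted p under 0.05), and 1 mural marker was lower. The endothelial markers averaged 5.6 to 5.9 on PV-tdTomato striatal arrays and 6.63 to 8.53 on PVCre striatal arrays. In cortex the microglial markers were again higher, 14 of 14, and 1 of 14 endothelial markers was. Of 13 astrocyte markers 0 were higher and 2 lower in PVCre striatum (1 and 2 at an unadjusted p under 0.05). Of 12 PV interneuron markers 0 were higher and 3 lower (0 and 3 unadjusted), a share lower that was near that of all genes. The median difference in striatum was -0.11 for the astrocyte and -0.61 for the PV interneuron markers, against -0.049 over all genes. In cortex 4 of 13 astrocyte and 7 of 12 PV interneuron markers were lower, and 7 of 10 subventricular progenitor markers (3 in striatum). Of 12 oligodendrocyte markers 5 were higher and 1 lower in PVCre striatum, and 8 were higher in cortex. Of 13 choroid plexus markers 6 were higher and 2 lower in each region. The part of these cell types in the line difference of the motile cilium genes was not tested.

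Within a group the same arrays tended to hold the highest or the lowest levels. Among the 4 PV-tdTomato striatal arrays, replicate 3 held the lowest level for 27 of 32 genes. Replicates 3 and 4, those low in Pvalb (7.29 and 8.4, against 11.38 and 11.86), were both below replicates 1 and 2 for 20 of 32 genes and both above for 2, where 33.3% of all genes lay below and 23.4% above. The median difference of these pairs of arrays was -0.38 for the 32 genes and -0.04 for all genes. On the same arrays the oligodendrocyte markers averaged 14.41 and 14.51, against 12.42 and 12.32 on replicates 1 and 2, and their part in this was not tested. Among the PVCre striatal arrays, replicate 2 held the highest level for 25 of 32 genes and replicate 1 the lowest for 22. The shares of all genes highest or lowest on single arrays were not counted, so these counts may reflect the whole array.

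**Figure D4:**
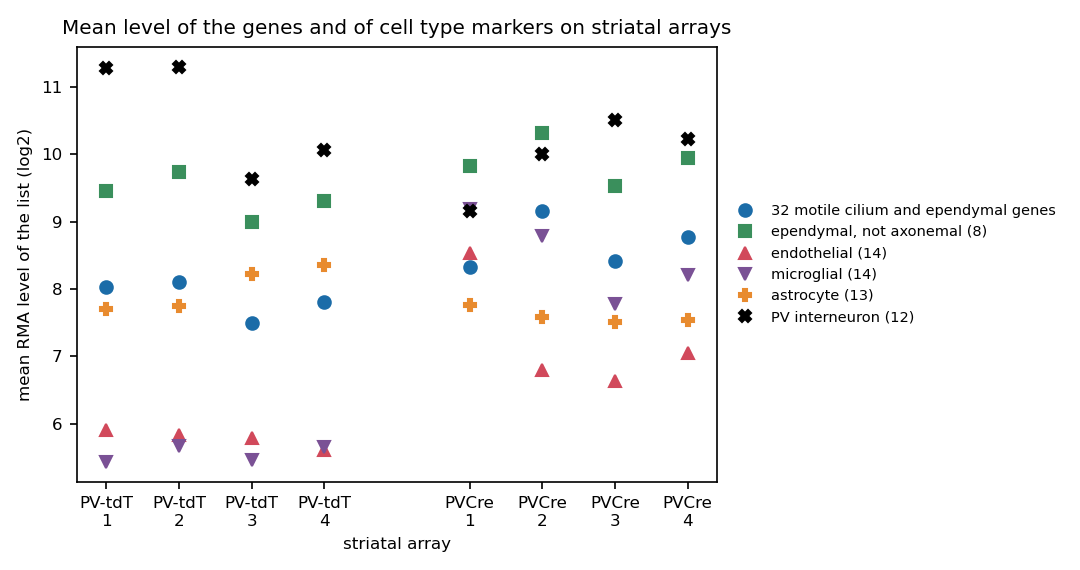
Mean log2 level of the 32 genes and of 5 marker lists (number of genes in brackets) on the 8 striatal arrays, by line and replicate number; PV-tdT stands for PV-tdTomato. The 32 genes average 7.49 to 8.1 in PV-tdTomato and 8.33 to 9.16 in PVCre. Within PV-tdTomato the ependymal and the PV interneuron markers both follow the same order of arrays as the 32 genes. The endothelial mean peaks at 8.53 on PVCre replicate 1.

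The plot of marker means by striatal array shows which lists ran with the motile cilium genes. The 8 ependymal markers that are not axonemal averaged 9.46, 9.73, 8.99 and 9.31 on the PV-tdTomato striatal arrays, where the 32 genes averaged 8.03, 8.1, 7.49 and 7.8. On the PVCre striatal arrays they averaged 9.82, 10.32, 9.53 and 9.94, and the 32 genes 8.33, 9.16, 8.42 and 8.77. Both sets were highest on replicate 2 in each line. Endothelial markers had their highest mean, 8.53, on PVCre replicate 1, where the 32 genes had their lowest PVCre mean. Of the 32 genes 2 had their highest PVCre striatal value on that array, Tm4sf1 at 12.28 and Dnaic1 at 8.62.

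Genes of the same structures outside the 33 were examined next, from lists covering the axoneme and its assembly. These lists were drawn up with earlier results of these data known, so their counts describe the genes and are no independent support. Of 100 such genes 92 had a level, and in limma 64 were higher in striatum over both lines at an adjusted p under 0.05 and 0 were lower, where 2.27% of all genes were higher and 0.618% lower. Their median difference was 0.82, beside 1.86 for the 32 genes, which had been picked on this contrast. In PV-tdTomato alone 44 were higher and in PVCre alone 50, with 0 lower in either (76 higher over both lines, 71 and 69 within the lines, and 0 lower in each, at an unadjusted p under 0.05; 1.2% and 1.83% of all genes were higher). Without the 6 arrays lowest in Pvalb 58 passed over both lines, and 5.01% of all genes.

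All structures had genes among the 64. Among dynein arm genes 8 of 12 were higher, led by Wdr63 (2.46 ± 0.17) and Dnah3 (1.70 ± 0.11), and Wdr78 (1.49 ± 0.14), all of the inner arm. Among genes that dock or assemble the arms it was 7 of 15, with Zmynd10 (1.03 ± 0.09), Armc4 (0.99 ± 0.09) and Dnaaf4 (0.95 ± 0.10). Radial spoke genes showed 10 of 12, with Nme5 (3.32 ± 0.29) and Cfap206 (3.27 ± 0.21). Central pair genes showed 7 of 9, with Cfap65 (2.37 ± 0.11), Spef2 (2.33 ± 0.13) and Cfap47 (1.88 ± 0.15). Nexin link genes showed 6 of 8, including Iqcg (2.11 ± 0.16), Fbxl13 (1.66 ± 0.14) and Drc3 (1.63 ± 0.12). For genes of proteins inside the doublets the count was 11 of 14, with Cfap161 (1.69 ± 0.12), Efhb (1.69 ± 0.13) and Mns1 (1.35 ± 0.15). Of 12 further ciliary genes 11 were higher, among them Capsl (3.79 ± 0.21) and Sntn (3.52 ± 0.22), the latter named for a protein of the ciliary tip.

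Of 10 regulators that start the multiciliated programme 4 were higher in striatum, where 2.27% of all genes were. Myb, a transcription factor of that programme, was close to background and was higher in striatum by 1.02 ± 0.09 (limma adjusted p = 5e-06), with 6.07 to 6.49 in PV-tdTomato striatum and 5.3 to 5.57 in PV-tdTomato cortex. Rfx2, of the factors that bind the X-box, was higher by 0.37 ± 0.05 (limma adjusted p = 0.00082). Deup1, of the structures that multiply centrioles, was higher by 0.46 ± 0.09 and Trp73, the p73 factor gene, by 0.26 ± 0.05. Neither Deup1 nor Trp73 passed without the 6 arrays lowest in Pvalb, and Trp73 was at background on all 16 arrays. The early regulators Mcidas, Gmnc, Ccno and Cdc20b were at background on all 16 arrays too and did not pass.

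Ependymal markers outside the axoneme were higher in striatum in 6 of 8 over both lines and in each line (limma, adjusted p under 0.05). Of all genes 2.27% were higher over both lines, 1.2% in PV-tdTomato and 1.83% in PVCre. This list too was drawn up with earlier results of these data known. Prom1, the prominin gene, went the other way in PVCre, where its level was lower in striatum, with a difference of -2.10 ± 0.44 (limma adjusted p = 0.017), with -1.07 ± 0.31 over both lines (limma adjusted p = 0.096) and -0.03 ± 0.44 in PV-tdTomato. Mia, which encodes a small secreted protein, was higher by 5.50 ± 0.40 (limma adjusted p = 6.4e-07), with 10.08 to 12.57 in PV-tdTomato striatum and 6.5 to 8.65 in cortex. Rarres2, the chemerin gene, was higher by 4.40 ± 0.28 (limma adjusted p = 2.2e-07), with 9.16 to 11.18 in PV-tdTomato striatum and 6.29 to 6.53 in cortex. Both therefore separated the regions without overlap. Vim, the intermediate filament gene vimentin, was higher by 2.72 ± 0.26 and Nnat, neuronatin, by 1.75 ± 0.12, and Cd24a and Ezr were the other markers past the threshold.

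The choroid plexus has an epithelium that is continuous with the ependyma. Of its 13 markers with a level 2 were higher in striatum, Calml4 by 0.99 ± 0.09 and Folr1 by 0.44 ± 0.06. Of all genes 2.27% were higher over both lines, the share for the both-line counts below as well. Among the defining markers, Ttr, Folr1, Kl, Clic6, Kcnj13, Aqp1 and F5 were at background on all 16 arrays. The mean of the list lay between 5.25 and 5.81 on every array. Of 13 astrocyte markers 4 were higher in striatum, Slc4a4 (2.28 ± 0.40), Mlc1 (1.83 ± 0.28), Sox9 (1.53 ± 0.18) and Aqp4 (0.42 ± 0.11), while Gfap was at background on all 16 arrays. Of 9 mural cell markers 3 were higher, with Acta2, smooth muscle actin, at 2.10 ± 0.24, and of 10 progenitor markers of the subventricular zone 3 were, with Egfr at 3.19 ± 0.47. Over both lines limma called 0 of 14 endothelial, 14 microglial and 12 oligodendrocyte markers between the regions. At an unadjusted p under 0.05 these were 6 endothelial markers, higher in striatum, 0 microglial markers and 1 oligodendrocyte marker, lower. In PVCre alone 3 of the 14 endothelial markers were higher in striatum at an adjusted p under 0.05 (12 unadjusted), where 1.83% of all genes were. All 14 were above 0 in PVCre, with a median difference of 1.16, against a median of -0.04 in PV-tdTomato. Of 12 PV interneuron markers 1 was higher in striatum over both lines (4 unadjusted), with 10 above 0 and a median difference of 1.06. The part of each of these cell types in the region difference was not tested.

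The primary cilium shares its transport machinery with the motile cilium. Of 42 genes of intraflagellar transport and of the primary cilium, which neurons also use, 6 were higher in striatum and 0 lower in limma (14 and 1 at an unadjusted p under 0.05), with a median difference of 0.17. Of all genes 2.27% were higher and 0.618% lower at the adjusted threshold, with a median difference of -0.023. The most clearly higher were Tmem67 (0.83 ± 0.12), a gene of the ciliary transition zone, Bbs9 (0.54 ± 0.08), Tctn2 (0.51 ± 0.08) and Dync2li1 (1.04 ± 0.19), of the transport dynein. Between the lines 28 of the 42 were lower in PVCre striatum and 1 higher, and 29 were lower and 0 higher in PVCre cortex (31 and 0 unadjusted), where 27.7% and 26.9% of all genes were lower. Of the 92 other motile cilium genes 39 were higher and 5 lower in PVCre striatum (22.6% and 27.7% of all genes), and 22 and 10 in cortex (24.1% and 26.9%), so in cortex the share higher was close to that of all genes.

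**Figure D5:**
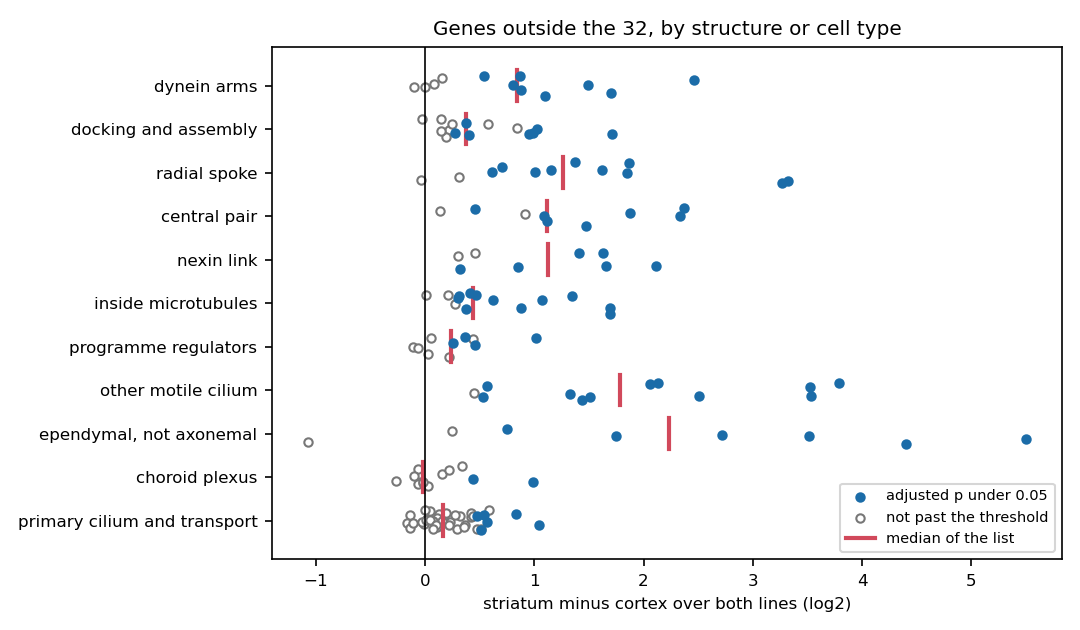
Striatum minus cortex over both lines (log2, horizontal axis) for genes outside the 32, 1 point per gene, by structure or cell type; filled points passed an adjusted p of 0.05 and the bars mark list medians. The list medians run from 0.24 to 1.79 for motile cilium structures and reach 2.23 for ependymal markers, against -0.02 for choroid plexus and 0.17 for the primary cilium.

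In the plot of genes outside the 32, the open points of the motile cilium rows crowd near 0 and are most frequent among the regulators and the assembly genes, whereas the highest point of the primary cilium row is at 1.04.

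Promoters were read for the sequence that regulators of ciliary genes are known to bind. RFX factors bind the X-box, an imperfect inverted repeat, and FOXJ1 binds forkhead sites. RefSeq windows (GRCm38.p6) of 250 bases before to 50 after the start were at hand for 29 of the 33 genes; Foxj1, Rsph1, Rsph4a and Cfap54 had none. On either strand, an X-box was found for 6 of the 29 genes (20.7%), against 2.15% of 27025 genes with a window, 17.3% of 81 other motile cilium genes and 5.13% of 39 primary cilium genes. These are the stretches around those 6 matches, shown because they are the members whose promoters carry the motif, 5′ to 3′ on the gene's own strand and ending at or before the start, with the X-box in capitals.

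Cfap44, chr16:44394749-44394798, plus strand: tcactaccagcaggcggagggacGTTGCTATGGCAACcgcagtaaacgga

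Cfap52, chr11:67965643-67965681, minus strand: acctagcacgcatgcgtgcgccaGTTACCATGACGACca

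Tekt1, chr11:72361883-72361920, minus strand: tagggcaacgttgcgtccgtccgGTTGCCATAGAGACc

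Mlf1, chr3:67373969-67374028, plus strand: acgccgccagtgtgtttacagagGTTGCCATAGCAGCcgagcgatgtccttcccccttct

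Spag17, chr3:99885300-99885359, plus strand: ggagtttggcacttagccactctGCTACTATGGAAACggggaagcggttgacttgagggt

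Dnah12, chr14:26691304-26691343, plus strand: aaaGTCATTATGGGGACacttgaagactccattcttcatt

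The match of Cfap52 ended 2 bases and that of Tekt1 1 base before the start, that of Cfap44 13, Spag17 80, Mlf1 91 and Dnah12 233. The region differences of these 6 genes were 2.16 (Cfap44), 1.49 (Cfap52), 1.92 (Tekt1), 1.91 (Mlf1), 1.72 (Spag17) and 2.70 (Dnah12), within the range of the genes without a match. The shorter core GTTGCCA, on either strand, was in the window of 6 of the 29 genes (20.7%): Cfap44, Mlf1 and Tekt1, where it lies inside the X-box, and Drc1, Hydin and Lrriq1. It was in 5.02% of all genes, 28.4% of the other motile cilium genes and 20.5% of the primary cilium genes. The forkhead core TGTTTAC, on either strand, was in the window of 3 genes (10.3%; Ak7, Cfap43 and Mlf1), against 4.05% of all genes, and in 7.41% of the other motile cilium and 0 of 39 primary cilium genes. In Mlf1 it precedes the X-box in the stretch shown. A match is a string of letters and was not tested as a binding site.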

How the data were processed

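Levels were the deposited log2 values of 72688 probe sets on 16 arrays. Per the submitters' processing notes, the authors made these log2 values with RMA and the Affymetrix Expression Console software. RMA corrects for background, normalizes and summarises probes. The software version, genome build and grouping of arrays are not stated here. Of the probe sets, 6732 were controls and 65956 transcript clusters, of which 31216 named 1 gene (used here), 1534 several and 33206 none in the platform annotation. For 364 genes with several clusters the one with the highest mean was kept. All genes and arrays entered the fit, and each array's values were distinct. RNA was isolated by a Trizol method per the labels' protocols. Arrays have no read depth; their number limits the precision.

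Groups were taken from the sample titles and genotypes. A linear model with a mean for each group was fitted over the 16 arrays in limma 3.58.1 (R 4.3.3), with eBayes moderation. p-values were adjusted by Benjamini-Hochberg over 30743 genes, with a threshold of 0.05. The fit was tested on simulated data. SD is over 4 arrays and SE is of the difference. p-values measure the spread between pools of sorted cells, and the labels name no batch, so line and batch cannot be told apart. The members and lists were chosen with earlier results of these data known. Values of every array are given for the 6 members named by an earlier ranking and the member of each structure with the highest mean level. For the 6 with the smallest p between lines in striatum and the 4 in the interaction, the values of the striatal arrays are given. Of other lists, up to 4 genes with the smallest p are named, with others in counts of 5 or fewer.

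Same-numbered striatal and cortical PV-tdTomato arrays deviated together (r from 0.53 to 0.70 over genes). Striatal replicates 2 and 4 were nonetheless most like cortical replicates 1 and 3, so pairs are not established. PVCre arrays of the same number did not deviate together throughout (-0.23 to 0.65). The main fit used no pairs, and the replicate block was an alternative only. Alternatives changed the filter, cluster rule, normalization, variance model, array weights, control separation, samples, replicate block and threshold. Promoter windows were read from RefSeq (GRCm38.p6), leaving out chromosome 18 and windows not of full length.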

Additional observations from a re-analysis of the deposited data

Results flagged for a closer look

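Among 128 sets of 4 arrays (32 genes in 4 groups), 6 held an array far from the other 3 by Dixon's criterion; chance flags about 1 set in 20. In PVCre striatum, replicate 2 was high for Dynlrb2 at 11.01 (the others 9.05 to 9.25), for Tekt1 at 8.03 (7.03 to 7.16) and for Lrriq1 at 7.84 (7.22 to 7.32). Replicate 1 of the same group was low for Ccdc39 at 7.29 (7.99 to 8.11). In PV-tdTomato striatum, replicate 3 was low for Drc1 at 7.25 (7.80 to 7.90). In PVCre cortex, replicate 2 was high for Dnah9 at 5.89 (5.65 to 5.68), at background on all of its arrays.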

How the results depend on the processing

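The region difference of each of the 32 genes, and the line differences of the 20 genes called in striatum and the 10 in cortex, kept their direction under every alternative run. Among the genes not called, 6 changed sign between lines in striatum (Dnaic2, Ccdc39, Spag6l, Dnah5, Rsph1 and Cfap52) and 8 in cortex under at least 1 alternative, and 6 in the interaction. The median region difference of the 32 genes stayed between 1.80 and 1.97 under 7 alternatives and between 1.77 and 1.92 when each array was left out. For the line comparison in striatum (20 genes), other settings gave 14 to 26. The exceptions were 13 with control separation as a covariate (23% of all genes) and 10 with a difference of at least 1 required (16%). The lines do not overlap in control separation, so the fit with it can hardly tell it from the line. Leaving out each array gave 18 to 23. With control separation, Dnah9, Dnaic1, Dnah6, Dnah12, Cfap126, Lrriq1 and Tm4sf1 lost their call, with larger differences for Dnah9, Dnaic1, Dnah6, Dnah12 and Lrriq1, and without the 6 arrays lowest in Pvalb the calls lost were those of Dnah9, Dnaic1, Dnah6, Ccdc153, Ak7 and Lrriq1. For cortex (10 genes) the counts were 2 with control separation (23.2% of all genes) and 3 without the 6 arrays (39.2%). They were 3 at an adjusted p under 0.01 (36.6%), 1 with a difference of at least 1 (16.5%), and 5 to 12 over the arrays left out. The interaction (0 genes) gave 1, Tmem212, with the replicate block, and 0 to 0 over the arrays left out. The block gave 21 genes between lines in striatum (46% of all genes) and 10 in cortex (46.5%), and 65 other motile cilium genes between regions (6.4%). Between lines it joined arrays that share only a number, with r from -0.39 to -0.07 in striatum and -0.61 to 0.47 in cortex. The data do not show such pairs. The 92 other motile cilium genes gave 64 over both lines, 38 with a difference of at least 1 (1.2% of all genes), and 57 to 66 over the arrays left out (40 to 45 in PV-tdTomato, 46 to 51 in PVCre). The causes were not tested. Background limits the cortical values.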

Other observations

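The 15 genes outside the 33 whose levels over the 16 arrays were most like the mean of the 32 genes (each scaled to unit spread) had Pearson r from 0.986 to 0.995. All arrays share the region and line differences, so r describes these arrays and carries no test. Of the 15, 8 were on the lists of motile cilium genes (Cfap61, Cfap65, Cfap206, Wdr63, Odf3b, Pifo, Dnah3 and Iqcg) and 1, Rarres2, on the ependymal list. The other 6 were on no list: Fam216b, Lrrc74b, Zbbx, 1700007K13Rik, Rgs22 and Daw1. Fam216b, the closest, averaged 8.52 ± 0.35 in PV-tdTomato striatum and 5.20 ± 0.12 in cortex, and 9.87 ± 0.80 and 5.51 ± 0.21 in PVCre (SD, n = 4 each). 1700007K13Rik averaged 8.54 ± 0.53 and 5.57 ± 0.24 in PV-tdTomato striatum and cortex, and 9.76 ± 0.69 and 6.02 ± 0.12 in PVCre. Rgs22, of the family that ends G protein signals, averaged 8.05 ± 0.21 and 5.48 ± 0.10, and 8.96 ± 0.62 and 5.35 ± 0.14.

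Among the 32 genes themselves, r with that mean (which holds each gene) was over 0.9 for 29, with a median of 0.974. The exceptions were Dnaic2 (0.637), Ccdc39 (0.718) and Dnah5 (0.856). Dnaic2 and Ccdc39 were also above background on 6 and 8 of the 8 cortical arrays, while Dnah5 was above it on none. Ccdc153, above background on all 8 as well, had r of 0.991, so a low r did not go with cortical detection throughout.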
